A study of Homo sapiens with 6 samples.

Results

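The BCL2 family of apoptosis regulators was examined in NB4 cells through 10 genes, BCL2, BCL2L1, MCL1, BCL2A1, BAX, BAK1, BBC3, PMAIP1, BID and BCL2L11, taken by symbol from the 23368 symbols of the count files. All 10 symbols were found, and all 10 were among the 13209 genes with enough counts to be tested. NB4 is an established human cell line of acute promyelocytic leukemia (APL), grown in vitro, so the values describe 1 line and not primary blasts. RNA-seq libraries were made from total RNA of cells left untreated (not treated, n.t.) or exposed for 24 h to 10 µM maltonis, a synthetic molecule derived from maltol and supplied from a stock in distilled water. Each group had 3 libraries, described as biological replicates. The libraries held between 18492154 and 38205483 counts, so that 3 counts, taken as the floor of detection, corresponded to between 0.0828 and 0.160 CPM (counts scaled to a common library size and normalized by TMM). This floor reflects counting error alone.

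The BCL2 family decides whether the outer membrane of mitochondria stays closed. Its antiapoptotic proteins (BCL2, BCL-XL, MCL-1 and BFL-1, encoded by BCL2, BCL2L1, MCL1 and BCL2A1) hold the pore-forming effectors BAX and BAK (BAX and BAK1) and the BH3-only proteins in check. BH3-only proteins such as PUMA, NOXA, BID and BIM (BBC3, PMAIP1, BID and BCL2L11) bind the antiapoptotic proteins or act on the effectors directly, and released cytochrome c then starts the caspase cascade. In myeloid leukemia the family is best known through MCL-1 and BCL2, on which blasts often depend for survival. RNA levels do not measure these proteins, many of which are regulated by stability, cleavage or location, and gene-level counts do not separate isoforms.

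After maltonis, 3 members were lower, BCL2, BBC3 and BID, and 2 were higher, BAX and PMAIP1, at a false discovery rate (FDR, the adjusted p) under 0.01 in edgeR's quasi-likelihood test. The other 5, BCL2L1, MCL1, BCL2A1, BAK1 and BCL2L11, did not pass that threshold. Across all genes tested, 32.1% were lower and 31.9% were higher by the same rule (64.0% in either direction), so a count of 5 among 10 members is no more than the background of these cells. All 3 lower members also fell by more than 2.5-fold, which 10.4% of all genes tested did, whereas neither higher member passed that fold (9.95% of all genes, and 20.3% in either direction). The median log2 fold change was −0.03 over the 10 members and 0.01 over all genes tested. The libraries of the groups did not overlap for 6 members, the 5 above and BCL2L1, against 76.6% of all genes tested. CPM values are shares of a library, so fewer cells of a kind and less RNA per cell cannot be told apart.

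**Figure D1:**
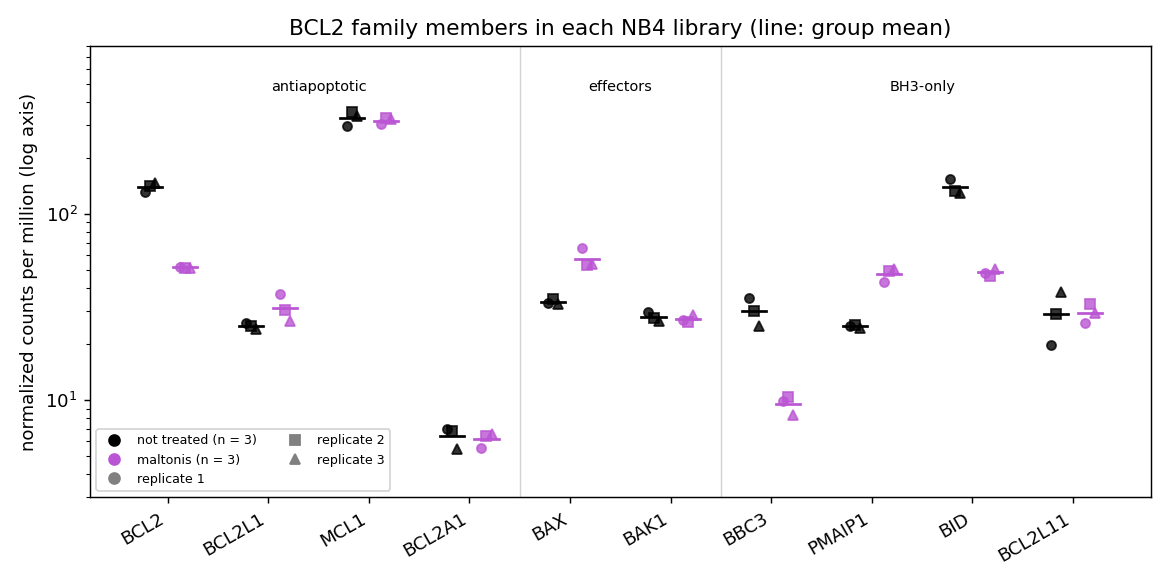
Normalized CPM (log axis) of the 10 members in each library, by role, for not treated and maltonis-treated cells (n = 3 each), with the group means. BCL2, BBC3 and BID lie lower and BAX and PMAIP1 higher after maltonis without overlap, while the libraries of MCL1, BCL2A1, BAK1 and BCL2L11 overlap between the groups.

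The regions before the start sites of 4 members that changed are shown so that genes of both directions can be compared base by base. They are RefSeq sequences of build GRCh38.p14, written 5′ to 3′ on the strand of the gene, limited to the bases that GENCODE 29 places in no exon, with motif matches in capitals. Motifs searched on both strands of the 250 bases before a start included CACGTG (the E-box), GGGCGG (the GC box), TGACGTCA (the cyclic AMP response element) and the core of the interferon-stimulated response element (GAAA repeated after any 2 bases). CACGTG reads the same on both strands, and CCGCCC in capitals is GGGCGG on the other strand. BAX lies at chr19:48954625-48954814 (+ strand), PMAIP1 at chr18:59899746-59899947 (+ strand), BBC3 at chr19:47232767-47232917 (− strand), and the window of BID, 1 of the 5 listed for that gene, at chr22:17774043-17774292 (− strand).
BAX: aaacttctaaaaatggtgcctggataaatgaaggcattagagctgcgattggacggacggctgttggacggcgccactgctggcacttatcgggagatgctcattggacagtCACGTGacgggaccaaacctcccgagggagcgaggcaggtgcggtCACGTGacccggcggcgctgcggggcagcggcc
PMAIP1: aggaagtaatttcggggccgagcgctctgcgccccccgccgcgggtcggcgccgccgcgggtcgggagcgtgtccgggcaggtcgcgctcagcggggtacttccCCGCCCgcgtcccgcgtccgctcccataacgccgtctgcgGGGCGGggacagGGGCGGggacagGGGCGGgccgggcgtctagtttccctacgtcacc
BBC3: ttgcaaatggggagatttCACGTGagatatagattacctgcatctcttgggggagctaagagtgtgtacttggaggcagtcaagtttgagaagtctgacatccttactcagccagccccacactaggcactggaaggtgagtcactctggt
BID: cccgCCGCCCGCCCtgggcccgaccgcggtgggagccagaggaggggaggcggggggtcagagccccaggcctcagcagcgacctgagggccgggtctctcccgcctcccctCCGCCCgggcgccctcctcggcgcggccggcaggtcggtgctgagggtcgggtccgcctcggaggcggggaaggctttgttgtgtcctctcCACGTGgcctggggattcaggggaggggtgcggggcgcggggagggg

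The BAX window held 4 copies of CACGTG, which begin at positions −138, −93, −45 and −14 from the start, the latter 2 in bases annotated as exon and not printed. Of 35116 promoter windows of the same length, 5 (0.0142%) held 4 or more copies and 6.34% held at least 1. The printed windows of BBC3 and BID held 1 copy each, so the E-box was present before members of both directions. Most of the other BID windows held none, and the remaining window overlaps the printed one and held the same site. The match before BID therefore depends on the start chosen. PMAIP1 held 4 GC boxes, and 7.63% of all windows held at least as many. The printed window of BID, a lower member, held 3, and other BID windows held up to 4. BCL2L11, which was not called, held 3. The interferon-stimulated core was found before BCL2A1 alone (3.02% of all windows), and TGACGTCA before none of the 9 members with a window (1.65%). A match is a string of letters in a window, and no factor was tied to it here. MCL1 has no printed window, and those of BCL2 and BCL2A1 lie in annotated exons. The match before BCL2A1 is therefore in exonic bases as well.

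Among the antiapoptotic genes, BCL2 was the member that changed. BCL2, which names the family and whose protein keeps the mitochondrial membrane closed, had 131, 141 and 146 CPM in the n.t. libraries and 52.2, 51.4 and 51.2 CPM in the maltonis libraries. The lowest n.t. library was thus far above the highest treated one, and the treated libraries were nearly equal. The mean fell from 139 ± 7.75 to 51.6 ± 0.502 CPM (SD, n = 3). This is 2.70-fold lower, with a log2 fold change of −1.43 (SE 0.0624, edgeR adjusted p = 2.07e-07), and 9.11% of all genes tested had a lower value. With total counts as the only scaling, the log2 fold change of BCL2 was −1.32, just inside the 2.5-fold limit.

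MCL1, whose short-lived protein restrains BAK and BAX in myeloid cells, had 297, 353 and 336 CPM in the n.t. libraries and 303, 327 and 323 CPM after maltonis. The treated range lies inside the n.t. range. Its log2 fold change was −0.05 (95% interval −0.22 to 0.12, edgeR adjusted p = 0.562). BCL2A1, an NF-kB target in hematopoietic cells, had the lowest CPM of the 10 members, with 6.98, 6.79 and 5.43 CPM in n.t. and 5.53, 6.41 and 6.60 CPM in treated libraries. These libraries overlap as well, at a log2 fold change of −0.03 (95% interval −0.34 to 0.27, edgeR adjusted p = 0.824).

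BCL2L1, the gene of BCL-XL, measured 26.0, 24.9 and 24.0 CPM in n.t. cells and 37.0, 30.4 and 26.5 CPM in treated cells. Every treated library was above every n.t. one, but the treated values spread from close to the n.t. range to well above it. The means were 25.0 ± 0.982 and 31.3 ± 5.32 CPM (SD, n = 3), and the log2 fold change of 0.32 (95% interval 0.05 to 0.59, edgeR adjusted p = 0.0332) did not pass the threshold of 0.01. It passed in 4 of 16 alternative fits, by edgeR with total counts as the only scaling (adjusted p = 0.00890), with the replicate block (adjusted p = 0.00594), with the library code as a term (adjusted p = 0.00471) and without maltonis replicate 3 (adjusted p = 0.00939). Without maltonis replicate 1, its highest library, the log2 fold change was 0.17 (edgeR adjusted p = 0.106). ABALON, a gene annotated on the opposite strand, shares 1424 exonic bases with BCL2L1. Whether counting used the strand is not given in the sources used here, and without it the reads of both genes cannot be told apart.

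The effectors divided. BAX, whose protein inserts into the mitochondrial membrane once activated, rose from 33.1, 35.1 and 32.9 CPM to 65.4, 53.2 and 53.6 CPM. Replicate 1 was the highest treated library, and all 3 treated libraries were well above the n.t. ones. Its log2 fold change was 0.76 (SE 0.0924, edgeR adjusted p = 7.92e-05), or 1.70-fold higher, and 79.7% of all genes tested had a lower value. BAK1, the gene of the effector that resides on mitochondria, showed 29.8, 27.7 and 26.5 CPM in the n.t. libraries against 27.0, 26.1 and 28.8 CPM. The groups overlap, and the log2 fold change was −0.04 (95% interval −0.21 to 0.14, edgeR adjusted p = 0.691).

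Of the 4 BH3-only members, 2 were lower, 1 was higher and 1 did not pass the test. BBC3, the gene of PUMA, which binds every antiapoptotic member, fell from 35.4, 30.2 and 24.9 CPM to 9.91, 10.3 and 8.31 CPM. The n.t. libraries were spread more widely than the treated ones, and none came near them. The log2 fold change was −1.66 (SE 0.144, edgeR adjusted p = 1.00e-05), or 3.16-fold lower, the largest change of the 10. The microRNA genes MIR3190 and MIR3191 overlap exons of BBC3 by 80 and 76 bases.

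BID links death receptors to mitochondria, since caspase-8 cleaves its protein into the active form. Its n.t. libraries held 155, 133 and 130.3 CPM and its maltonis libraries 48.3, 46.6 and 50.7 CPM. The groups are far apart, with a log2 fold change of −1.52 (SE 0.0807, edgeR adjusted p = 5.59e-07), or 2.87-fold lower. PMAIP1, the gene of NOXA, whose protein binds MCL-1 above all, rose from 24.9, 25.4 and 24.3 CPM to 43.3, 49.2 and 50.8 CPM. Each treated library was far above the n.t. ones, and the log2 fold change was 0.94 (SE 0.0791, edgeR adjusted p = 8.14e-06), or 1.92-fold higher. BBC3 and PMAIP1, both BH3-only genes, changed in opposite directions.

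BCL2L11, the gene of BIM, which binds all antiapoptotic members, varied widely among the n.t. libraries. It measured 19.8, 29.01 and 38.2 CPM there and 25.9, 32.8 and 29.5 CPM after maltonis. All treated values lie between the lowest and the highest n.t. one, and the log2 fold change was 0.01 (95% interval −0.46 to 0.48, edgeR adjusted p = 0.956). The interval is the widest of the 10, and changes within it in either direction are not excluded. MIR4435-2HG, on the opposite strand, shares 727 exonic bases with BCL2L11.

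Library names carry a code that sets replicate 1 of both groups apart from replicates 2 and 3, and the labels do not explain it. Within replicate 1 the log2 differences were −1.33 for BCL2, −1.84 for BBC3, −1.68 for BID, 0.98 for BAX and 0.80 for PMAIP1. Within replicates 2 and 3 they were −1.48, −1.56, −1.44, 0.65 and 1.01 for the same genes, so each of the 5 kept its direction in both sets. BCL2L1 differed by 0.51 and 0.22. The values of BCL2L11 were 0.39 and −0.11, those of BCL2A1 −0.34 and 0.09, those of MCL1 0.03 and −0.08 and those of BAK1 −0.14 and 0.02. These 4 differed in sign between the sets.

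**Figure D2:**
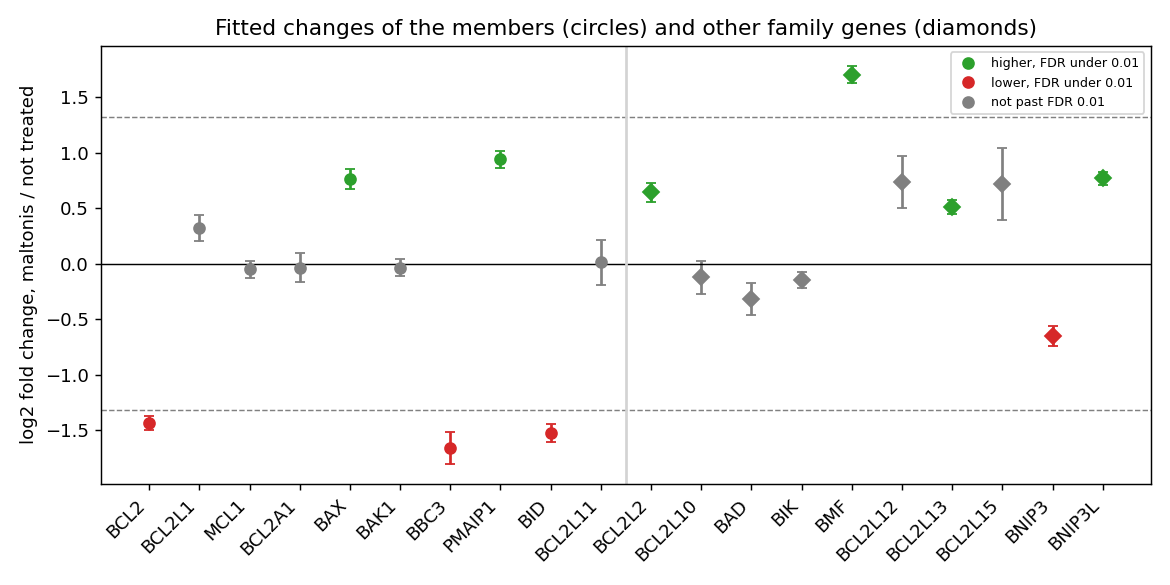
Log2 fold change of maltonis-treated over not treated cells from edgeR (bars, standard error) for the 10 members and the 10 other family genes that could be tested, colored by direction at an FDR under 0.01, with lines at a 2.5-fold change. BBC3, BID and BCL2 lie below the lower line and BMF alone above the upper one.

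Levels of different genes were compared per length, as CPM per kilobase of the exons linked to RefSeq transcripts (RPKM). In n.t. cells the order was MCL1 (80.4 ± 7.001 RPKM), BID (52.4 ± 5.03), BAX (23.9 ± 0.842), BBC3 (14.4 ± 2.53), BAK1 (13.1 ± 0.779), PMAIP1 (12.8 ± 0.301), BCL2 (11.9 ± 0.660), BCL2L1 (8.73 ± 0.344), BCL2A1 (5.88 ± 0.776) and BCL2L11 (4.67 ± 1.48 RPKM, all SD, n = 3). The libraries of the neighbors BBC3 and BAK1, BAK1 and PMAIP1, and BCL2A1 and BCL2L11 overlapped, and those of the other neighbors did not. After maltonis the order was MCL1 (77.7 ± 3.16 RPKM), BAX (40.7 ± 4.92), PMAIP1 (24.5 ± 2.03), BID (18.2 ± 0.762), BAK1 (12.8 ± 0.629), BCL2L1 (10.9 ± 1.86), BCL2A1 (5.68 ± 0.528), BCL2L11 (4.74 ± 0.555), BBC3 (4.55 ± 0.509) and BCL2 (4.39 ± 0.0427 RPKM). There, the libraries of BAK1 and BCL2L1 overlapped, as did all neighbors from BCL2A1 down. MCL1 was first in both groups with each of 3 gene lengths, whereas BCL2 went from place 7 to place 10 with the lengths used here and from 5 to 9 with all annotated exons.

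MCL1 made up most of the antiapoptotic transcripts in every library. Of the summed RPKM of the 4 antiapoptotic genes it took 73.2%, 76.2% and 76.1% in the n.t. and 76.7%, 79.3% and 80.1% in the maltonis-treated libraries. The share of BCL2 was 11.2%, 10.6% and 11.5% in n.t. and 4.60%, 4.34% and 4.42% in treated libraries, which do not overlap. BCL2L1 had mean shares of 8.20% ± 0.824 and 11.1% ± 2.07, and BCL2A1 of 5.52% ± 0.920 and 5.74% ± 0.450 (SD, n = 3). Without maltonis replicate 1 the difference in the share of BCL2L1 was 1.76 percentage points in place of 2.91. BCL2 thus stood next to MCL1 in n.t. cells and last of the 4 in treated cells, where BCL2L1 stood next to MCL1.

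Summed by role, the 4 antiapoptotic genes had 107 ± 7.03 RPKM in n.t. and 98.7 ± 2.14 RPKM in maltonis-treated cells (SD, n = 3). The sums of the 2 effectors were 37.0 ± 1.12 and 53.5 ± 4.85 RPKM, and those of the 4 BH3-only genes 84.3 ± 6.07 and 52.0 ± 2.42 RPKM. BID alone made up most of the BH3-only sum in n.t. cells, and its mean fell from 52.4 to 18.2 RPKM. BBC3 fell from 14.4 to 4.55 RPKM. In contrast, PMAIP1 rose from 12.8 to 24.5 RPKM and BCL2L11 was nearly level (4.67 and 4.74 RPKM). The effector sum rose with BAX (23.9 to 40.7 RPKM), while BAK1 was nearly level (13.1 and 12.8 RPKM). BMF, another BH3-only gene, is not in the sum, and its log2 fold change was 1.71. The sums are a description with no test, and the members, also those tested singly or in ratios, were chosen with results known.

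**Figure D3:**
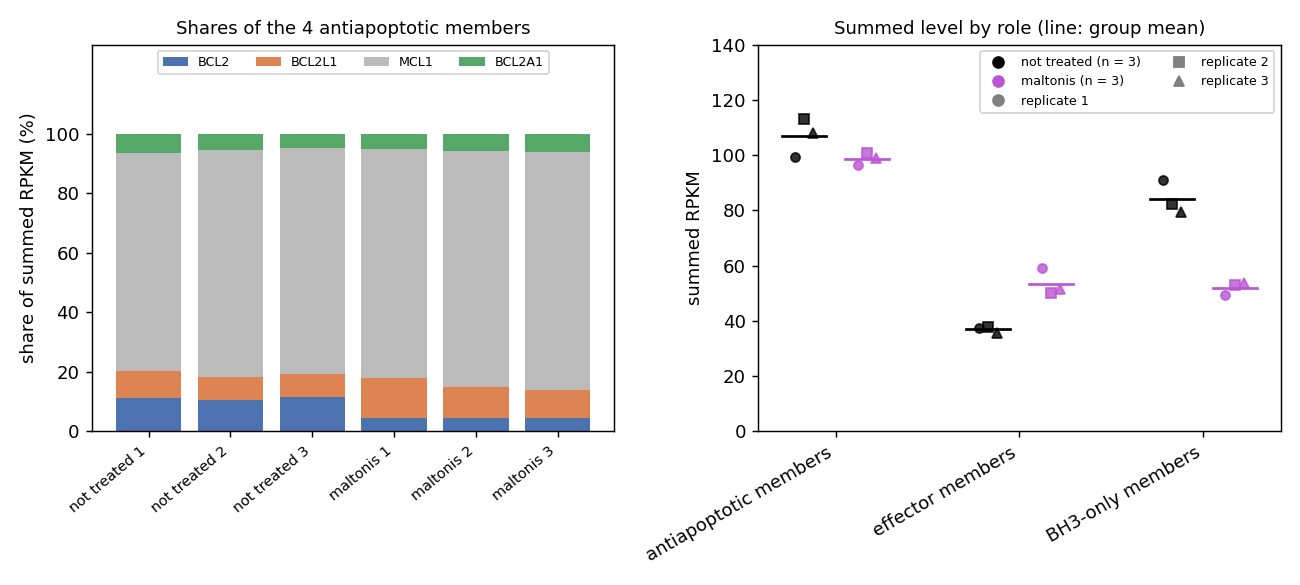
Share of each antiapoptotic member in the summed RPKM of the 4 in every library, and summed RPKM by role in each library (n = 3 per group). The sum of the effectors lies higher (37.0 against 53.5 RPKM) and that of the BH3-only members lower (84.3 against 52.0 RPKM) after maltonis. The sums follow BAX and BID above all, while BAK1 was nearly level and PMAIP1 rose (12.8 against 24.5 RPKM).

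Ratios of counts between 2 members within a library do not depend on how libraries are scaled, and 8 pairs of genes whose proteins bind or oppose each other were compared. The ratio of BAX to BCL2 moved most, from log2 ratios of −1.98, −2.004 and −2.15 to 0.33, 0.05 and 0.07, a 4.57-fold shift. BCL2 counts exceeded BAX counts in every n.t. library and were below them in every treated one, although the ratio is not corrected for length. The ratio of PMAIP1 to MCL1 went from −3.57, −3.79 and −3.79 to −2.81, −2.73 and −2.67, a log2 difference of 0.98, and that of PMAIP1 to BCL2A1 differed by 0.98. BCL2L11 to BCL2 went from −2.73, −2.28 and −1.94 to −1.01, −0.65 and −0.80, a difference of 1.50 that follows the lower BCL2.

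None of these 4 pairs overlapped between the groups, nor did BAK1 to BCL2L1, with mean log2 ratios of 0.16 ± 0.0288 and −0.19 ± 0.289 (SD, n = 3). Libraries of 76.6% of all single genes tested did not overlap either, and no such share was computed for pairs of genes. Within replicate 1 and within replicates 2 and 3, the shifts were 2.31 and 2.14 for BAX to BCL2, 0.77 and 1.09 for PMAIP1 to MCL1, 1.13 and 0.91 for PMAIP1 to BCL2A1, 1.72 and 1.39 for BCL2L11 to BCL2 and −0.65 and −0.20 for BAK1 to BCL2L1. BID and BCL2 were both lower, and their log2 ratio was 0.24, −0.08 and −0.17 in n.t. and −0.11, −0.14 and −0.02 in treated libraries. That pair overlapped, as did BCL2L11 to MCL1 and BAK1 to MCL1, with shifts of −0.09, 0.11 and 0.00953. A two-sided exact permutation test gave p = 0.1 for each of the 5 pairs that did not overlap, the smallest that 3 libraries against 3 allow, and 0.16 after Benjamini-Hochberg adjustment over the 8 pairs. The test could therefore not reach 0.05 for any pair.

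**Figure D4:**
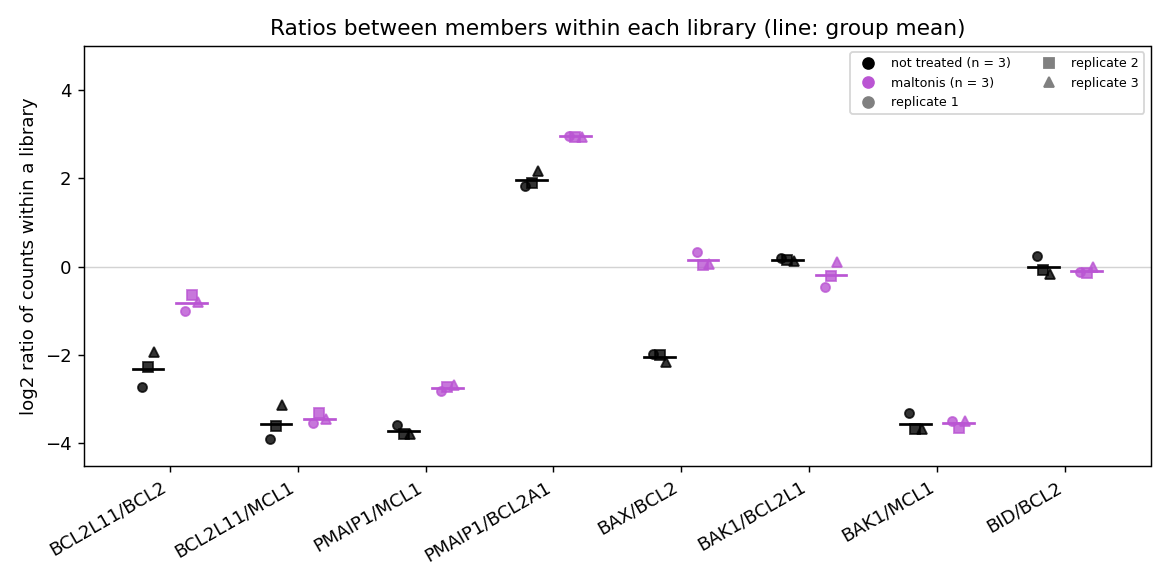
Log2 ratio of the counts of 2 members within each library for 8 pairs, for not treated and maltonis-treated cells with group means (n = 3). BAX to BCL2 shifts furthest, by 2.19, while BID to BCL2 overlaps between the groups.

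The rest of the family was examined through 13 further genes, 10 of which had enough counts to be tested. Of these, 4 were higher and 1 was lower at an FDR under 0.01, against 31.9% and 32.1% of all genes tested. BMF, a BH3-only gene whose protein is held at the cytoskeleton, had the largest change, from 13.5, 13.4 and 14.2 CPM to 48.0, 44.0 and 42.1 CPM. All treated libraries were far above the others, with a log2 fold change of 1.71 (SE 0.0782, edgeR adjusted p = 2.62e-07), and BMF was the only gene of the 20 tested family genes more than 2.5-fold higher. Of all genes tested, 9.95% were higher past that fold at the same FDR, a larger share than in the family. BCL2L2, the antiapoptotic gene of BCL-w, was higher by 0.65 (edgeR adjusted p = 0.000138), BCL2L13, a mitophagy receptor, by 0.52 (8.51e-05) and BNIP3L by 0.77 (3.15e-06) on the log2 scale. BNIP3, which like BNIP3L is induced by hypoxia and acts in mitophagy, fell from 84.2, 89.3 and 76.8 CPM to 47.8, 53.5 and 58.2 CPM (log2 fold change −0.65, edgeR adjusted p = 0.000179). BNIP3 and BNIP3L thus changed in opposite directions, while processed pseudogenes of BNIP3 leave some of its reads uncertain.

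BAD, BIK, BCL2L10, BCL2L12 and BCL2L15 did not pass the test. The log2 fold changes were −0.32 for BAD (edgeR adjusted p = 0.0715), −0.14 for BIK (0.110), −0.12 for BCL2L10 (0.482) and 0.72 for BCL2L15 (0.0754), which was under 1 CPM in every library. BCL2L12 had 14.0, 30.4 and 28.5 CPM in n.t. and 42.7, 39.5 and 40.8 CPM in treated libraries. Its n.t. replicate 1 was far below the other two, and the log2 fold change of 0.74 (SE 0.234, edgeR adjusted p = 0.0192) became 0.46 (edgeR adjusted p = 0.000384) without that library, which passes the threshold. BCL2L12 passed in 8 of 16 alternative fits in total. BAD passed in 3 of 16 alternative fits, among them the replicate block (edgeR adjusted p = 0.00318). BOK and BCL2L14 had at most 9 and 3 counts in any library, and HRK had 0 counts in all 6.

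Downstream of the family, a list of 18 genes of the mitochondrial apoptosis pathway was tested in full. At an FDR under 0.01, 9 were higher and 5 lower, with a median log2 fold change of 0.21, against 31.9% and 32.1% of all genes tested. HTRA2, a mitochondrial protease that blocks inhibitors of apoptosis once released, was the only one past 2.5-fold, from 60.4, 59.3 and 52.5 CPM to 200.2, 191 and 187 CPM. The groups are far apart, at a log2 fold change of 1.75 (SE 0.0708, edgeR adjusted p = 1.48e-07). Of all genes tested, 20.3% passed that fold and FDR in either direction, a larger share than on this list. The genes named next were chosen after their values were seen. DFFB (1.16), a nuclease that cuts DNA in apoptosis, and APAF1 (1.06), the scaffold of the apoptosome, followed in log2 fold change. CASP9 and CASP8 were higher by 0.69 and 0.46, DIABLO by 0.50, and the inhibitors of apoptosis BIRC2 and XIAP by 0.74 and 0.47, so genes of caspases and of their inhibitors were both among the higher ones. The 5 lower genes were VDAC1 (−1.04) and VDAC2 (−0.70), channels of the outer membrane, CYCS (−0.83), which encodes cytochrome c, DFFA (−0.64), the inhibitor of DFFB, and AIFM1 (−0.34). VDAC3, another such channel, was not lower. Its log2 fold change was 0.19 (edgeR adjusted p = 0.0261), and it passed as higher in 5 of 16 alternative fits. CYCS and VDAC1 have processed pseudogenes, and their reads are uncertain to that extent.

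Of 16 genes known to act on the family through transcription, ubiquitin or phosphorylation, 3 were higher and 8 lower at an FDR under 0.01, with a median log2 fold change of −0.25. Taken in either direction, the 11 called regulators are close to the background, since 64.0% of all genes tested were called. By direction, 31.9% of all genes tested were higher and 32.1% lower, a more even split than on this list. MYC, a transcription factor of growth, fell from 595, 705 and 682 CPM to 192, 179 and 184 CPM. The treated libraries were all far lower, with a log2 fold change of −1.84 (SE 0.0763, edgeR adjusted p = 1.66e-07). BTRC, a subunit of a ubiquitin ligase, had a log2 fold change of −1.36 (edgeR adjusted p = 4.85e-07). DDIT3, the stress factor CHOP, rose from 26.7, 25.0 and 23.1 CPM to 69.4, 71.1 and 71.1 CPM (log2 fold change 1.50, edgeR adjusted p = 3.43e-07). FOXO3, an inducer of BBC3 and BCL2L11, and MARCH5, a mitochondrial ubiquitin ligase, were lower, at −1.29 and −1.21, and were named after their values were seen, as are the genes that follow. HUWE1 and USP9X, which add ubiquitin to MCL-1 and remove it, did not pass the test, at −0.0606 and −0.21 (edgeR adjusted p = 0.681 and 0.0690). USP9X passed in 3 of 16 alternative fits, with the library code as a term, without n.t. replicate 1 and with replicates 2 and 3 alone. The calls of NFKB1 (−0.29) and FBXW7 (−0.29) each held in 8 of 16 alternative fits.

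**Figure D5:**
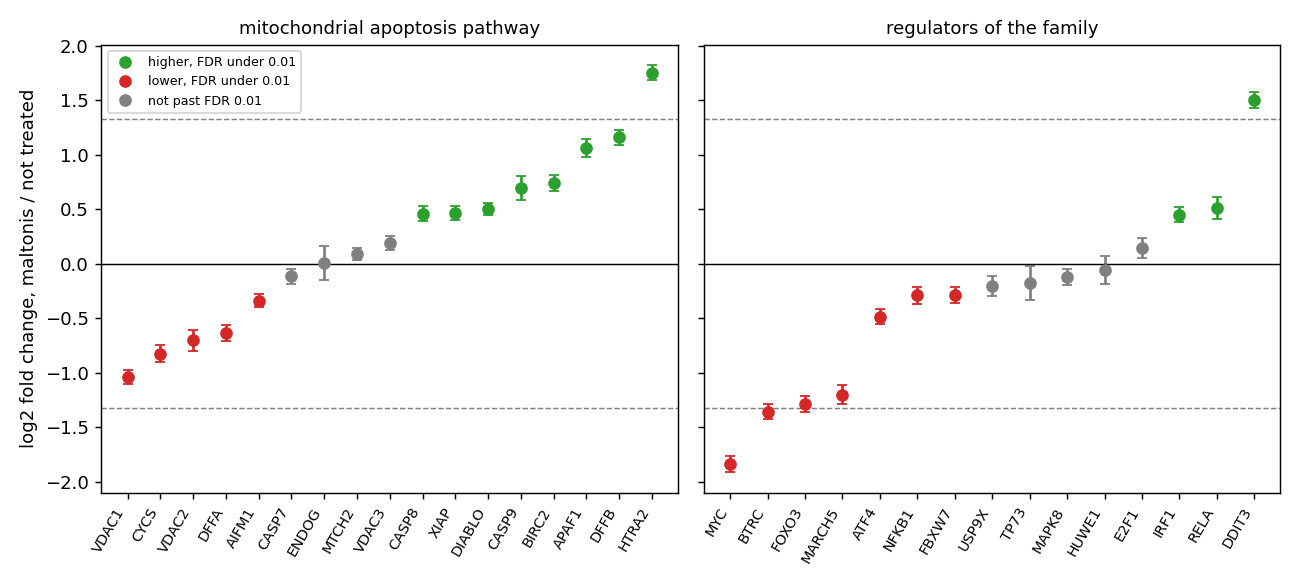
Log2 fold change (bars, standard error) of genes of the mitochondrial apoptosis pathway and of regulators of the family, colored by direction at an FDR under 0.01, with lines at 2.5-fold. HTRA2 and DDIT3 lie above the upper line, and MYC and BTRC below the lower one.

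Markers of the labelled cell type were checked once. Of 10 promyelocyte markers, 9 were above 1 CPM in every library, and ELANE, a granule protease, had only 3, 6 and 2 counts in the n.t. libraries against 406, 565 and 409 counts in the treated ones. The summed level of the 10 was 14305 to 16735 CPM in n.t. and 9096 to 9558 CPM in treated libraries, most of it MPO, whose mean went from 14612 to 7425 CPM. The markers did not move together, since the means of ELANE, CTSG (109 and 553 CPM), LYZ (104 and 282 CPM), PRTN3 and AZU1 were above those of n.t. cells, and those of MPO, CD33, SPI1, CEBPA and CEBPE were below. Markers of B and erythroid cells summed to at most 3.41 and 0.959 CPM, with MS4A1, HBB and HBG1 at 0 in every library. The 5 T cell markers summed to 49.5 to 52.4 CPM in n.t. and 18.3 to 19.1 CPM in treated libraries, most of it CD3D, while CD3E had at most 2 counts. Monocyte markers summed to between 36.7 and 42.3 CPM in n.t. and between 46.6 and 49.3 CPM in treated libraries. The part of these shifts in the changes of the BCL2 family was not tested.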

How the data were processed

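RNA of NB4 cells was measured in 3 not treated and 3 maltonis-treated libraries. The authors deposited whole-number HTSeq counts of reads per gene symbol, without normalization; the submitters' processing notes name TopHat, Bowtie2, HTSeq and hg19, while versions, annotation and strand setting are not given in the sources used here. Groups and replicate numbers come from the sample titles. Counts were analyzed in R 4.3.3 with edgeR 4.0.16 (TMM, filterByExpr, quasi-likelihood test of the 6 libraries without covariates, Benjamini-Hochberg adjustment over 13209 genes). Standard errors are the fold change over the square root of F. Replicates were compared by chi-square per degree of freedom (4.15 to 33.1), so each counted once. RPKM used RefSeq-linked exons of GENCODE 29 (another build than the counts, used for lengths only), found for all 10 members. Alternatives were DESeq2 1.42.0 and edgeR's likelihood ratio test, other scalings, filters, lengths, a pseudocount of 1, the replicate block, the library code and each library left out. The tests were first tested on simulated data. Python 3.11.15 and scipy 1.17.1 ran the permutation tests. The members, gene lists and motifs were chosen with earlier results of these data known. All members and other family genes are named; of the other lists, genes past an FDR of 0.01 and 2.5-fold. Some items on the lists are not reported here.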

Additional observations from a re-analysis of the deposited data

How the results depend on the processing

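Over 16 alternative fits, BCL2, BBC3, BID, BAX and PMAIP1 passed an FDR of 0.01 in each, with log2 fold changes of −1.49 to −1.32, −1.79 to −1.54, −1.58 to −1.40, 0.64 to 0.88 and 0.87 to 1.06. Same-numbered libraries correlated in their deviations with 0.301, 0.0852 and 0.161, all positive and highest for replicate 1. The main fit did not take the numbers as pairs, and these values do not settle whether it should have. With the library code as a term, 4731 genes were higher and 4743 lower, against 4213 and 4239 in the main fit. The replicate block raised the higher genes from 4213 to 4602 and the lower ones from 4239 to 4620, made BCL2L1 pass (edgeR adjusted p = 0.00594), and raised the lower genes among the other family genes from 1 to 2, as did the library code as a term and the fit of replicates 2 and 3. Total counts and upper quartile scaling moved the median of all genes from 0.014 to 0.13 and 0.10 (log2). Members that were not called changed sign there, with MCL1 at 0.070 and 0.038, BCL2A1 at 0.084 and 0.053 and BAK1 at 0.083 and 0.052, all below that median. With replicates 2 and 3 alone, BCL2A1 (0.083), BAK1 (0.012) and BCL2L11 (−0.11) changed sign, as did the ratios of BCL2L11 to MCL1 (−0.014) and BID to BCL2 (0.044), and PMAIP1 to MCL1 was 1.09. Leaving out each library in turn gave log2 fold changes of −0.15 to 0.013 for BCL2A1 and −0.20 to 0.25 for BCL2L11, and ratio shifts of −0.067 to 0.32 for BCL2L11 to MCL1, −0.049 to 0.13 for BAK1 to MCL1 and −0.17 to 0.033 for BID to BCL2. The share of BCL2A1 changed by −0.23 to 0.69 percentage points, and that of BCL2 by −7.04 with all annotated exons. Depth limits BCL2L15, BOK, BCL2L14 and HRK. The cause of these shifts was not tested.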

Other observations

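Of all genes tested, MGAT5, DUSP3 and PPIF had profiles most like that of BCL2 over the 6 libraries, with root mean square differences of 0.0369, 0.0404 and 0.0427 in centered log2 CPM. MGAT5, a glycosyltransferase of the Golgi, went from a mean of 142 CPM without treatment to 50.3 CPM with maltonis. DUSP3, a phosphatase, went from 28.96 to 10.8 CPM, and PPIF, a peptidyl-prolyl isomerase of the mitochondrial matrix, from 329 to 120 CPM. With 2 groups of 3 libraries, such likeness mostly reflects an equal change with treatment and is given as a description.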
